A study of Homo sapiens with 6 samples.

Results

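Long noncoding RNAs (lncRNAs) with established names were examined in senescent human fibroblasts, with and without depletion of another lncRNA, sin-lncRNA. The set held 32 listed lncRNAs and every gene whose name starts with SNHG, which added 15 genes. These 47 genes were found among the 57819 genes of the deposited table: 46 matched by name, and NORAD is listed there under its older name LINC00657 and was matched by gene ID. IMR90 cells are lung fibroblasts of an established human line. In IMR90 ER:Ras cells, a Ras oncogene is fused to an estrogen receptor domain and is switched on by 4-hydroxytamoxifen (4OHT), which leads to oncogene-induced senescence. All 6 libraries came from 4OHT-treated cells, at 200 nM over 3 days per the labels' protocols. The control group carried the scrambled siRNA siSCR, and the knockdown group carried siRNA against sin-lncRNA, with 3 libraries each. The labels give the same siRNA name for all 3 knockdown libraries. Other effects of that siRNA therefore cannot be told apart from effects of sin-lncRNA depletion. Both groups were therefore senescent by design, and no untreated cells were analysed here. The labels do not say whether the 3 libraries of a group came from separate cultures, so p-values measure only the spread between these libraries, which may be technical.

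Long noncoding RNAs act without being translated. Some are structural: NEAT1 builds the nuclear bodies called paraspeckles, and MALAT1 collects in nuclear speckles beside splicing factors. Others are mainly carriers, in which the spliced RNA surrounds introns that release small nucleolar RNAs (the SNHG genes, GAS5, DANCR, ZFAS1 and EPB41L4A-AS1) or a stretch that is cut into microRNAs (MIR31HG, MIR22HG, MIR17HG, MIR210HG and DLEU2). The small nucleolar RNAs guide chemical modification of ribosomal RNA, and several host transcripts are removed by nonsense-mediated decay. Imprinted lncRNAs such as MEG3, H19 and KCNQ1OT1 are made from a single parental allele. TERC, RMRP and RPPH1 are the RNA parts of telomerase, RNase MRP and RNase P. These last 3 lack the usual polyA tail, as do processed MALAT1 and the long form of NEAT1, and the libraries were made from polyA RNA.

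Values are given as RPM, the reads recovered from the deposited log2 values and scaled to library size as in CPM. The target was checked first: sin-lncRNA stood at 3.70, 4.73 and 4.09 RPM in the controls and 0.493, 0.640 and 0.534 RPM in the knockdowns, a log2 fold change of -2.86 ± 0.18 (SE). Totals were 30271192 to 50913672 reads in genes in the controls and 22117324 to 27882280 in the knockdowns, so every knockdown library was shallower. The 10 fibroblast markers summed to 40100 to 42000 RPM in controls and 40200 to 41600 RPM in knockdowns, and none was at 0. The similar sums hide opposite differences of single markers: FN1 had 24300 to 26800 RPM in controls and 29100 to 30900 in knockdowns, while COL1A1 had 6130 to 7040 and 3420 to 3850 RPM. COL3A1, THY1 and LUM were also higher in every knockdown library, COL1A2, VIM, PDGFRB and DCN lower, and S100A4 overlapped; their part in the results was not tested. The 5 epithelial markers summed to 0.352 to 0.533 and 0.314 to 0.463 RPM, with KRT5 at 0 in every library. Blood cell markers summed to 0.200 to 0.382 and 0.256 to 0.392 RPM, with HBB at 0. The 4 endothelial markers used summed to 6.99 to 7.90 RPM in controls and 7.91 to 8.84 RPM in knockdowns, higher in every knockdown library by a narrow margin. TEK, most of the sum, overlapped between groups (5.09 to 6.20 and 5.20 to 6.36 RPM). VWF was apart (1.67 to 1.83 and 2.20 to 2.60 RPM), and KDR had at most 0.128 RPM and CDH5 at most 0.0427 RPM. The part of these differences in the results was not tested. In bulk samples, fewer cells of a type and less RNA per cell cannot be told apart.

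The sequences that the changed lncRNAs carry are shown first for the microRNA hosts, because the mature microRNAs themselves were not measured in these polyA libraries. In RefSeq (GRCh38.p14), 35 mature microRNAs were found inside 10 of the 47 genes. Not all of the 47 were searched, so these counts cover the searched genes only and may miss hosts that changed. Of the 35 found, 6 lie inside 4 searched genes whose level changed with the knockdown. These 6 hold 6 distinct seeds, so none of the 6 share one. They are written with the seed, bases 2 to 8, in capitals.
MIR31HG, miR-31-5p: aGGCAAGAugcuggcauagcu
MIR22HG, miR-22-3p: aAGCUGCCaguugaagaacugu
MIR22HG, miR-22-5p: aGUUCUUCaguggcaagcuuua
MEG3, miR-770-5p: uCCAGUACcacgugucagggcca
MEG3, miR-2392: uAGGAUGGgggugagaggug
DANCR, miR-4449: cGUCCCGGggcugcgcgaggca
The miR-31-5p sequence lies at chr9:21512158-21512178 on the minus strand and miR-22-3p at chr17:1713914-1713935 on the minus strand. Both are well-studied microRNAs of stromal and epithelial cells.

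The levels of the named lncRNAs in control senescent cells spanned from no read to NORAD. Levels were compared between genes as RPM per kb of merged exons, with exon lengths from GENCODE 29. These lengths are an approximation, since the annotation used for counting was not given in the sources used here. Whether reads across exon junctions were aligned was not given either, so levels of spliced and unspliced genes may not be comparable. NORAD, a cytoplasmic lncRNA that binds Pumilio proteins, was highest at 66.3 ± 1.6 RPM per kb (SD, n = 3), and no control library of another member reached it. SNHG8 followed at 26.3 ± 2.4, MALAT1 at 24.5 ± 2.8, FENDRR at 20.9 ± 1.2 and TUG1 at 19.4 ± 1.0 RPM per kb. Neighbours in this order overlapped in their control libraries from SNHG8 to TUG1. The next in order were ZFAS1 at 17.8, MIR22HG at 17.3, SNHG5 at 17.1 and TP53TG1 at 16.1 RPM per kb. Of the 46 adjacent pairs in the whole order, 33 overlapped in their control libraries, so only the broad order is resolved. With the longest transcript in place of merged exons NORAD stayed first at 66.3 RPM per kb, while the order below it changed. SNHG5 moved from rank 8 to rank 2, at 46.5 RPM per kb, and DANCR from rank 13 to rank 6. SNHG8 moved from rank 2 to rank 5 and MALAT1 from rank 3 to rank 9.

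**Figure D1:**
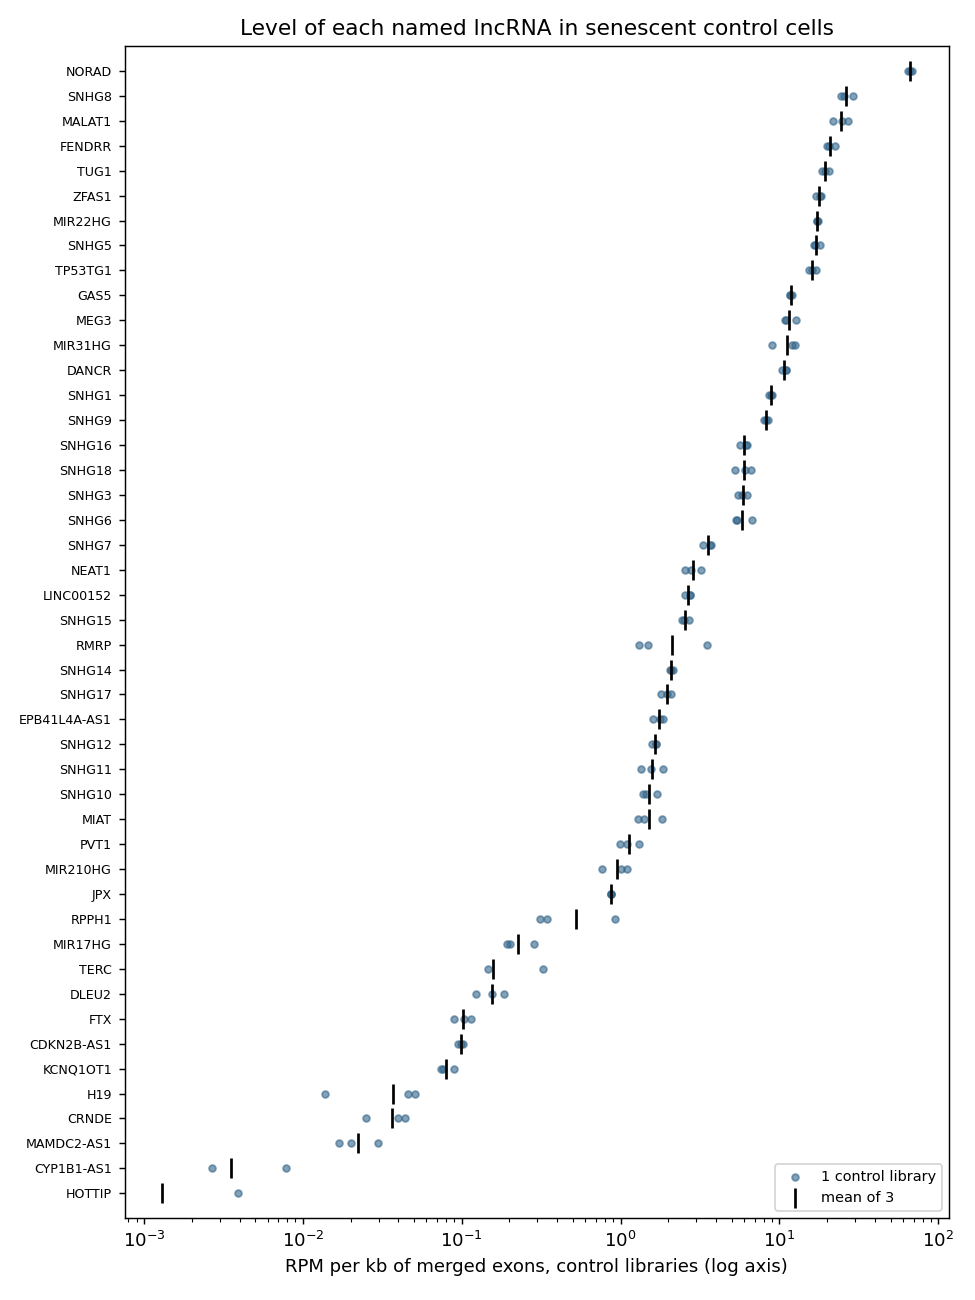
Level of each named lncRNA in the 3 control libraries (points) and their mean (bar), in RPM per kb of merged exons on a log axis, ordered by the mean. NORAD stands alone at 66.3, most snoRNA hosts lie in the upper part, and libraries with no read, all 3 of HOTAIR among them, have no point on a log axis.

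7 of the named lncRNAs were too low to test, and they hold some of the best-known names. A gene entered the test with 10 or more normalized reads on average, and 40 of the 47 did. HOTAIR, a lncRNA of the HOXC cluster, had 0 reads in all 6 libraries. With no read counted, as many as 3 reads remain possible, which is 0.0596 to 0.134 RPM in a library, for counting error alone. HOTTIP, at the end of the HOXA cluster, had 1 read, in control replicate 3. H19, the imprinted partner of IGF2, had 5, 4 and 2 reads in the controls and 9, 10 and 9 in the knockdowns. The knockdown libraries were shallower and still held more H19 reads, but at these numbers the gene fell under the filter and has no test. CRNDE had 3 to 13 reads per library, and TERC 0 to 7. The 2 low antisense genes, MAMDC2-AS1 and CYP1B1-AS1, are described with their partners further on.

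The named lncRNAs moved in both directions. Of the 40 tested, 20 (50.0%) passed an adjusted p of 0.05, 9 of them higher and 11 lower in the knockdown. Over all 19048 tested genes 41.0% passed, 17.5% higher and 23.5% lower, and over the 1566 tested genes of long noncoding types 21.2% passed. The named lncRNAs had a median of 408 normalized reads, against 29.2 for the long noncoding types and 386 for all genes, so their share is better set beside that of all genes, and it is near it. Libraries of the groups did not overlap for 25 of the 40 (62.5%), against 51.1% of all genes. The median log2 fold change of the 40 was -5e-05, against -0.0394 over all genes. The split moved with the scaling: quantile normalization gave 14 higher and 8 lower, and thinning every library to the smallest total gave 12 higher and 9 lower. Without knockdown replicate 3 the count was 13, with 6 higher and 7 lower. Every lncRNA called had at least 67 reads in every library.

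**Figure D2:**
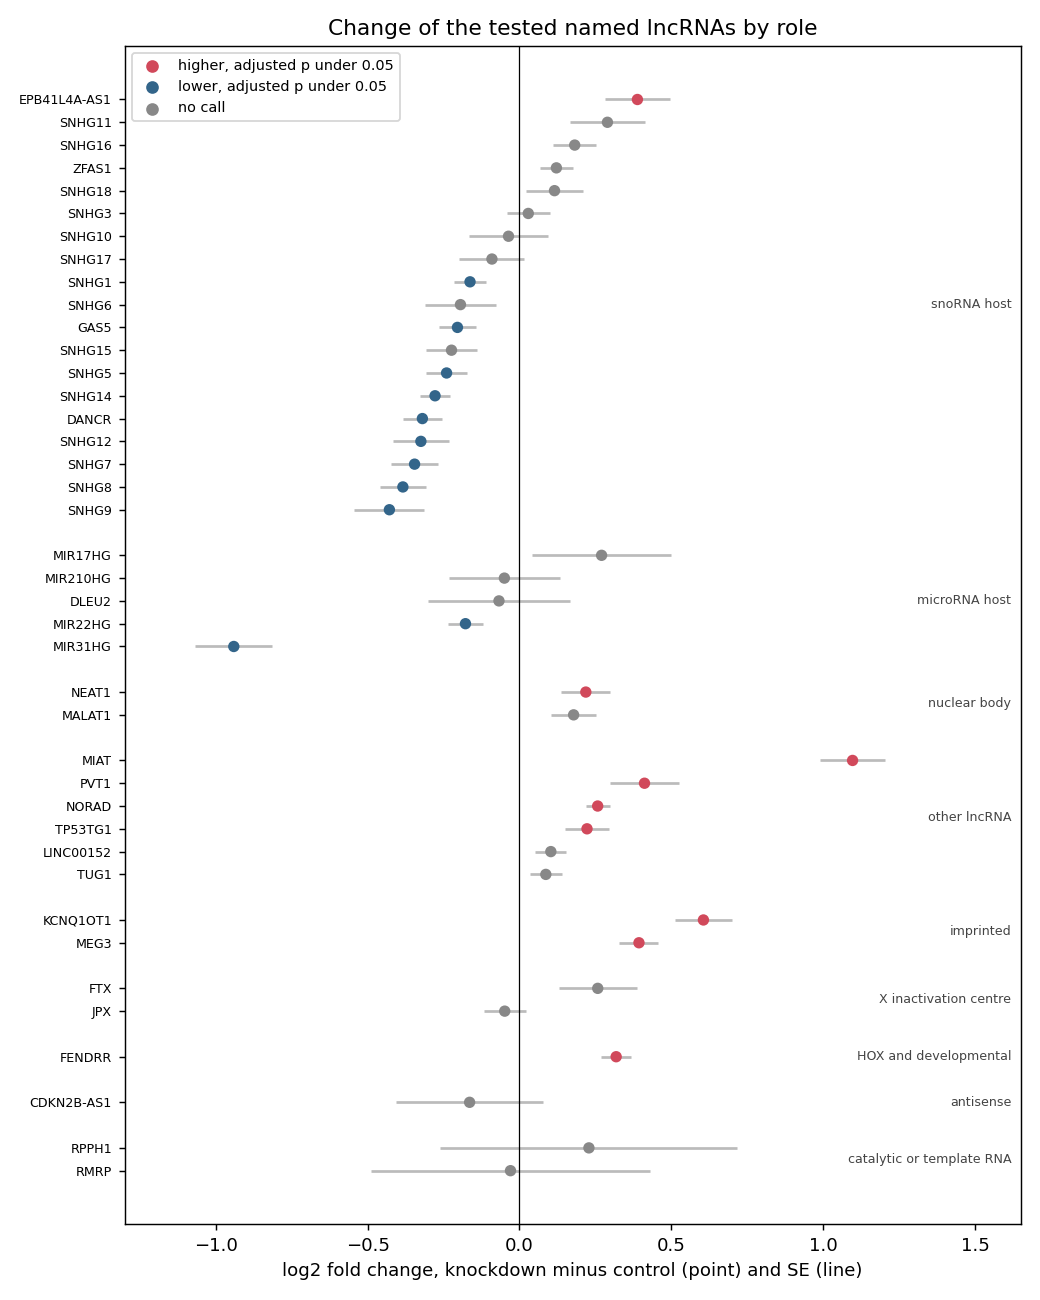
Log2 fold change (knockdown minus control, points) with its SE (lines) of the 40 tested lncRNAs, grouped by role; colour marks an adjusted p under 0.05. The snoRNA hosts lie mostly left of 0, while MIAT at 1.10 and MIR31HG at -0.94 lie farthest out.

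Of the 40 lncRNAs tested, MIAT had the largest rise. MIAT, a lncRNA known from a locus studied in heart infarction and from nuclear foci in neurons, had 21.7, 16.5 and 15.2 RPM in the controls and 38.1, 36.8 and 38.0 RPM in the knockdowns. All 3 knockdown libraries lay far above all 3 controls, and the knockdowns stood close together while the controls were spread. The log2 fold change was 1.10 ± 0.11 (SE), with an adjusted p of 2e-05. No other named lncRNA that passed had a log2 fold change beyond 1 in either direction. MIAT shares 18.2% of its exon bases with exons on the other strand in GENCODE 29, but no gene on that strand passed the filter.

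Of MEG3, H19 and KCNQ1OT1, the lncRNAs grouped here as imprinted, KCNQ1OT1 and MEG3 could be tested, and both rose. SNHG14, the transcript across the Prader-Willi and Angelman region, was grouped with the snoRNA hosts and fell (-0.28 ± 0.05, adjusted p = 0.0013). KCNQ1OT1 silences neighbouring genes of the CDKN1C and KCNQ1 domain on the paternal chromosome. It had 8.17, 6.96 and 6.76 RPM in the controls and 11.3, 10.5 and 11.4 RPM in the knockdowns, a log2 fold change of 0.61 ± 0.09 (adjusted p = 0.00042). The groups were apart, with the lowest knockdown above the highest control. MEG3 is a maternally expressed lncRNA of the DLK1 domain that is linked to p53 activity. Its levels were 293, 256 and 250 RPM in the controls and 347, 372 and 330 RPM in the knockdowns, a log2 fold change of 0.39 ± 0.06 (adjusted p = 0.00065). MEG3 was therefore among the highest of the set by RPM, which is not scaled to length. Per kb of merged exons it ranked 11, at 11.5 RPM per kb in the controls. MEG3 again separated the groups fully. MIR770, a microRNA gene listed inside MEG3 on the same strand, also rose, by 1.10 ± 0.38 (adjusted p = 0.037), at under 1 RPM, and reads of MEG3 and of this gene cannot be told apart there.

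None of the listed protein-coding genes of these imprinted domains passed the test as higher. CDKN1C, a cell cycle inhibitor in the KCNQ1OT1 domain, had a log2 fold change of -0.60 ± 0.24 and did not pass the test (adjusted p = 0.069). KCNQ1 had a single read in all. DLK1 had 0.16 ± 0.19 (adjusted p = 0.54). IGF2, the growth factor next to H19, fell from 16.1 ± 1.4 to 12.2 ± 0.4 RPM (SD, n = 3), with an adjusted p of 0.0019.

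PVT1, TP53TG1 and NORAD were the other 3 risers of the mixed group of 6 that holds MIAT, TUG1 and LINC00152. PVT1, the lncRNA beside MYC, had 5.99, 5.43 and 7.17 RPM in the controls and 8.88, 7.68 and 8.05 RPM in the knockdowns. The groups were apart by a narrow margin, with a log2 fold change of 0.41 ± 0.11 (adjusted p = 0.014), which became 0.354 (adjusted p = 0.053) without knockdown replicate 1. MYC itself, a growth-promoting transcription factor, went the other way, from 39.3 ± 1.3 to 26.9 ± 1.3 RPM (log2 fold change -0.55 ± 0.06, adjusted p = 3.3e-05). NORAD rose from 354 ± 9 to 423 ± 10 RPM (log2 fold change 0.26 ± 0.04, adjusted p = 0.00047), the most precisely measured change of the set. PUM2, an RNA-binding Pumilio protein that NORAD binds, rose by 0.31 ± 0.05 (adjusted p = 0.00041). TP53TG1, named as a p53 target, rose by 0.22 ± 0.07 (adjusted p = 0.031); its call was lost in 5 of 18 other fits, among them those without control replicates 2 or 3 and without knockdown replicates 1 or 3, with adjusted p up to 0.098. TUG1 at 0.09 ± 0.05 (adjusted p = 0.21) and LINC00152 at 0.10 ± 0.05 (adjusted p = 0.13) did not pass.

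FENDRR, a lncRNA of lung and gut mesoderm that lies beside FOXF1, was the only one of the HOX and developmental group to pass the filter, and it rose. It had 152, 135 and 139 RPM in the controls and 177, 182 and 172 RPM in the knockdowns. The groups did not overlap, and the log2 fold change was 0.32 ± 0.05 (adjusted p = 0.00054). FOXF1, a transcription factor of lung mesenchyme, had 250 ± 28 and 234 ± 10 RPM, a log2 fold change of -0.09 ± 0.07 that did not pass (adjusted p = 0.33).

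The nuclear body lncRNAs pointed up but were not clearly separated. NEAT1 had 73.3, 63.3 and 57.8 RPM in the controls and 73.0, 80.6 and 71.9 RPM in the knockdowns. Control replicate 1 lay inside the knockdown range, so the groups overlap. NEAT1 passed narrowly, at 0.22 ± 0.08 (adjusted p = 0.049), and the call was lost in 9 of 18 other fits, those without any single one of control replicates 2 and 3 and knockdown replicates 1, 2 and 3 included; without control replicate 3 it was 0.14 (adjusted p = 0.21). MALAT1 had 240, 219 and 191 RPM in the controls and 258, 245 and 230 RPM in the knockdowns, 0.18 ± 0.07, which did not pass (adjusted p = 0.079). Control replicate 1 reached into the knockdown range here too, and without it MALAT1 passed at 0.255 (adjusted p = 0.013). Without control replicate 3 it was 0.0899 (adjusted p = 0.33), and without knockdown replicate 1 it was 0.138 (adjusted p = 0.22). Among 12 paraspeckle protein genes, 2 fell and none rose (16.7% called, against 41.0% of all genes): HNRNPA1 by -0.30 ± 0.04 and DAZAP1 by -0.26 ± 0.08. The core paraspeckle proteins NONO (-0.05 ± 0.04) and SFPQ (0.02 ± 0.04) did not pass. Among 9 speckle genes, 5 passed (55.6%): 3 rose (SRSF6 by 0.35 ± 0.04, SRSF5 by 0.19 ± 0.04 and SON by 0.15 ± 0.04) and 2 fell (SRRM2 by -0.30 ± 0.04 and SRSF2 by -0.17 ± 0.05).

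**Figure D3:**
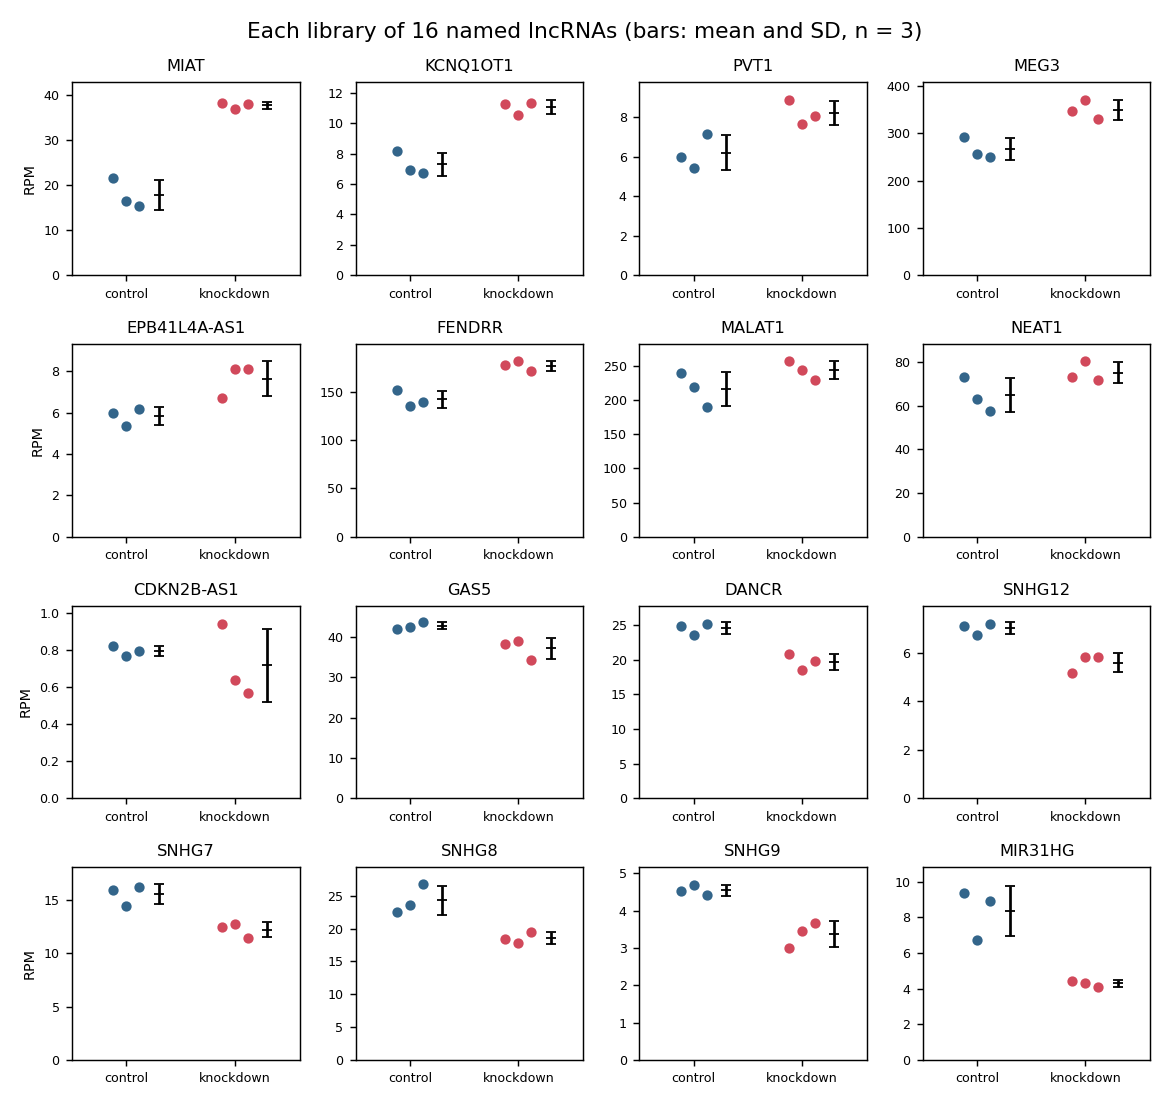
RPM of 16 named lncRNAs in each control library (blue points) and knockdown library (red points), with the mean and SD of each group (bars, n = 3), each panel starting at 0. MIAT and MIR31HG show the widest gaps between groups, while the groups of NEAT1, MALAT1 and CDKN2B-AS1 overlap.

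The snoRNA hosts went mostly down. All 19 were tested, and 10 passed (52.6%, against 41.0% of all genes): 9 lower and 1 higher, where 23.5% of all genes were lower and 17.5% higher. Their median log2 fold change was -0.194, against -0.0394 over all genes. Their summed level was 436 ± 5 RPM in the controls and 397 ± 12 RPM in the knockdowns (SD, n = 3), a ratio of 0.909, and the exact permutation test gave 0.1, the smallest two-sided p that 3 against 3 can give. The direction of the split held under other scalings, but not its size: quantile normalization gave 4 higher and 7 lower, and thinning to the smallest total gave 3 higher and 8 lower. Without knockdown replicate 3 the count was 6, all lower. The fall of the summed level rests in part on SNHG14, the host with the most RPM. It went from 90.7 ± 1.8 to 74.8 ± 4.0 RPM (SD, n = 3), and listed genes overlap it on both strands.

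SNHG9 fell most among the hosts. This short host gene lies next to a ribosomal protein gene and had 4.52, 4.70 and 4.41 RPM in the controls and 3.00, 3.46 and 3.67 RPM in the knockdowns. Its log2 fold change was -0.43 ± 0.12 (adjusted p = 0.012), resting on 67 to 222 reads per library. SNHG8 had 22.5, 23.6 and 26.7 RPM in the controls and 18.4, 17.8 and 19.5 RPM in the knockdowns, a fall of -0.38 ± 0.07 (adjusted p = 0.0020). In both genes every knockdown library lay below every control.

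SNHG7 had 15.98, 14.5 and 16.2 RPM in the controls and 12.5, 12.8 and 11.4 RPM in the knockdowns (-0.35 ± 0.08, adjusted p = 0.0045). SNHG12 had 7.11, 6.73 and 7.17 RPM in the controls and 5.16, 5.81 and 5.81 RPM in the knockdowns (-0.32 ± 0.09, adjusted p = 0.017). The SNHG12 call was lost without control replicate 3 (-0.307, adjusted p = 0.072) or without knockdown replicate 1 (-0.268, adjusted p = 0.055). DANCR, named for blocking differentiation of progenitor cells, had 24.96, 23.6 and 25.2 RPM in the controls and 20.8, 18.5 and 19.8 RPM in the knockdowns (-0.32 ± 0.07, adjusted p = 0.0027). None of the 3 genes overlapped between groups.

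GAS5 was first described as a transcript that accumulates in growth-arrested cells, and it can bind the glucocorticoid receptor. It had 42.1, 42.5 and 43.8 RPM in the controls and 38.2, 39.1 and 34.3 RPM in the knockdowns. The groups did not overlap, yet the fall was small at -0.20 ± 0.06 (adjusted p = 0.019), and the call was lost in 5 of 18 other fits, among them those without control replicate 3 (-0.188, adjusted p = 0.081) and without knockdown replicate 3 (-0.146, adjusted p = 0.080). The other hosts that fell were SNHG14 (-0.28 ± 0.05, adjusted p = 0.0013), SNHG5 (-0.24 ± 0.07, adjusted p = 0.016) and SNHG1 (-0.16 ± 0.05, adjusted p = 0.030). SNHG14 is the long transcript across the Prader-Willi and Angelman region. SNHG5 lost its call in 3 other fits, those without control replicate 1 or knockdown replicate 3 included (adjusted p up to 0.075), and SNHG1 in 7, those without control replicates 2 or 3 or knockdown replicate 3 included (adjusted p up to 0.12).

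EPB41L4A-AS1 was the host that rose. It had 5.96, 5.33 and 6.18 RPM in the controls and 6.68, 8.11 and 8.12 RPM in the knockdowns, 0.39 ± 0.11 (adjusted p = 0.014). In GENCODE 29, 49.6% of its exon bases are shared with exons of the other strand. Knockdown replicate 1 stood close to the controls, and the call was lost without knockdown replicate 2 (0.342, adjusted p = 0.052) or replicate 3 (0.342, adjusted p = 0.060). The 9 hosts that did not pass were SNHG11 (0.29), SNHG16 (0.18), ZFAS1 (0.12), SNHG18 (0.12), SNHG3 (0.03), SNHG10 (-0.04), SNHG17 (-0.09), SNHG6 (-0.19) and SNHG15 (-0.22), given as log2 fold changes with adjusted p from 0.056 to 0.85.

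Host genes of small nucleolar RNAs are known as members of the terminal oligopyrimidine class, whose RNAs begin with C and a run of further pyrimidines, as those of ribosomal proteins do. The start sites of 6 hosts that fell are therefore shown, as 51 bases centred on the RefSeq start (GRCh38.p14), on the strand of the gene, with the pyrimidine run in capitals where the script found one.
SNHG8, chr4:118278737-118278787, plus strand: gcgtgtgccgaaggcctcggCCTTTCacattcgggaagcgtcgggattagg
SNHG7, chr9:136728159-136728209, minus strand: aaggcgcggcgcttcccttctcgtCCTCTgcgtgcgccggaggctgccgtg
SNHG12, chr1:28581848-28581898, minus strand: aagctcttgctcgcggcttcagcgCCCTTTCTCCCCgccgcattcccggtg
DANCR, chr4:52712369-52712419, plus strand: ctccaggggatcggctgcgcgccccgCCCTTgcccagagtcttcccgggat
SNHG5, chr6:85678708-85678758, minus strand: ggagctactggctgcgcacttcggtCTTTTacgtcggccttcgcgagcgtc
SNHG1, chr11:62855860-62855910, minus strand: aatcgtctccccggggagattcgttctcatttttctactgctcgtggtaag
A run was C followed by C or T to a length of at least 5, read on the gene's strand only and beginning within 5 bases of the start. Of 16 hosts with a RefSeq window, 9 (56.2%) held one, against 6 of 20 other members (30.0%) and 21.1% of all 35116 RefSeq promoters. A longer run, of at least 8 and beginning within 10 bases, was in 2 of 16 hosts (12.5%), 10.0% of the other members and 9.2% of all promoters. The longer run was computed first and the shorter one was chosen after its result was seen, so nothing is read from the difference. Of the 9 hosts with the shorter run 5 fell and none rose (SNHG8, SNHG7, SNHG12, DANCR and SNHG5 fell), and of the 7 without it 3 fell (SNHG14, GAS5 and SNHG1) and 1 rose (EPB41L4A-AS1). This split was not tested and uses the rule chosen after a result was seen, so nothing is read from it either. Each window was taken at a single RefSeq start per gene, which was not matched to the start of the counted gene. A host placed without a run, GAS5 and SNHG14 included, may therefore hold a run at another start. SNHG9, the host that fell most, had no RefSeq window and is in neither group. A match describes these letters and is no evidence of how the RNAs are translated.

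Of 13 genes of the proteins that assemble small nucleolar RNAs, 6 fell and none rose (46.2% called, near the 41.0% of all genes, of which 23.5% were lower), with a median log2 fold change of -0.188 against -0.0394 over all genes. FBL (fibrillarin, the methyltransferase of box C/D particles) fell by -0.39 ± 0.06 and the assembly helicase subunit RUVBL1 by -0.37 ± 0.05. The core box C/D proteins NOP56 (-0.06 ± 0.06) and NOP58 (-0.04 ± 0.08) did not pass. Among 14 genes of nonsense-mediated decay, which removes several host transcripts, 3 rose and 2 fell (35.7% called), CASC3 by -0.45 ± 0.05 and SMG9 by 0.38 ± 0.06 at the ends. The central helicase UPF1 had -0.08 ± 0.05 and did not pass.

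MIR31HG fell most of the 40 lncRNAs tested. It is the host of miR-31 and is known in fibroblasts as a lncRNA that keeps CDKN2A, the gene of a senescence-linked cell cycle inhibitor, repressed. It had 9.34, 6.73 and 8.90 RPM in the controls and 4.44, 4.31 and 4.10 RPM in the knockdowns, or 51.5% of the control mean. The knockdown libraries lay close together and all below the lowest control, control replicate 2. The log2 fold change was -0.94 ± 0.13 (adjusted p = 0.00018), and it ranged from -1.09 to -0.85 in the 18 other fits. CDKN2A stood at 86.8, 42.6 and 65.2 RPM in the controls and 35.7, 51.5 and 38.4 RPM in the knockdowns. Its groups overlapped, and it passed narrowly at -0.59 ± 0.21 (adjusted p = 0.044).

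Of the other 4 microRNA hosts, MIR22HG alone passed. This host of miR-22 fell from 51.7 ± 0.7 to 45.7 ± 3.2 RPM (SD, n = 3), -0.18 ± 0.06 (adjusted p = 0.030). This call was lost in 7 of 18 other fits, those without control replicate 3 or knockdown replicates 1 or 3 included, with adjusted p up to 0.12. MIR17HG, host of the miR-17 cluster and a MYC target, had 0.27 ± 0.23 at 20 to 34 reads per library. MIR210HG, host of the hypoxia microRNA miR-210, had -0.05 ± 0.18, and DLEU2, host of miR-15a and miR-16, had -0.07 ± 0.23. At this depth changes of their size could not be told from the spread. Of 8 genes that make or use microRNAs, 6 passed (75.0%, against 41.0% of all genes): 3 rose (DICER1 by 0.73 ± 0.06, TARBP2 by 0.56 ± 0.06 and AGO3 by 0.45 ± 0.05) and 3 fell (AGO2 by -0.27 ± 0.05, XPO5 by -0.24 ± 0.05 and DROSHA by -0.23 ± 0.07). DICER1, the enzyme that cuts hairpins into mature microRNAs, went from 67.0 ± 4.3 to 111 ± 6 RPM (adjusted p = 5.3e-06).

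Overlapping genes make part of these values uncertain, because whether the counting used strand was not given in the sources used here. Of the 47 genes, 28 have a listed gene on the opposite strand, and for 16 such a gene passed the filter. For MIR31HG, 40.7% of exon bases in GENCODE 29 are shared with exons of the opposite strand. The interferon pseudogene IFNWP19, which overlaps it there, fell by -0.59 ± 0.09 (adjusted p = 0.00052). IFNE, an interferon gene inside MIR31HG on the same strand, fell by -0.39 ± 0.10 (adjusted p = 0.0087). The 3 genes fell together, and reads from MIR31HG and IFNWP19 cannot be told apart without strand. The decrease was larger for MIR31HG than for either neighbour, and this difference was not tested.

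Other overlaps went in different directions. ZBTB37, opposite GAS5, rose by 0.84 ± 0.06 (adjusted p = 3.4e-06) while GAS5 fell, although only 1.16% of GAS5 exon bases are shared with that strand in GENCODE 29. WDR81, opposite MIR22HG, fell by -0.48 ± 0.08 (adjusted p = 0.00089) with it, and FAM69B, opposite SNHG7, fell by -1.02 ± 0.34 (adjusted p = 0.033) at under 1 RPM. The share of exon bases in common with the other strand was 0.0% for MIR22HG and 25.2% for SNHG7. It was 0.188% for SNHG12 and 0.457% for SNHG14. TRNAU1AP opposite SNHG12 (0.09 ± 0.08) and UBE3A opposite SNHG14 (0.10 ± 0.04) did not pass. Of the 16 tested lncRNAs with no listed gene on the other strand, 8 passed, 4 higher and 4 lower, which is the same share as in the 40. These 8 were NORAD, FENDRR, NEAT1 and TP53TG1, which rose, and SNHG8, SNHG9, SNHG5 and SNHG1, which fell, although in GENCODE 29 TP53TG1 shares 32.7% of its exon bases with the other strand.

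**Figure D4:**
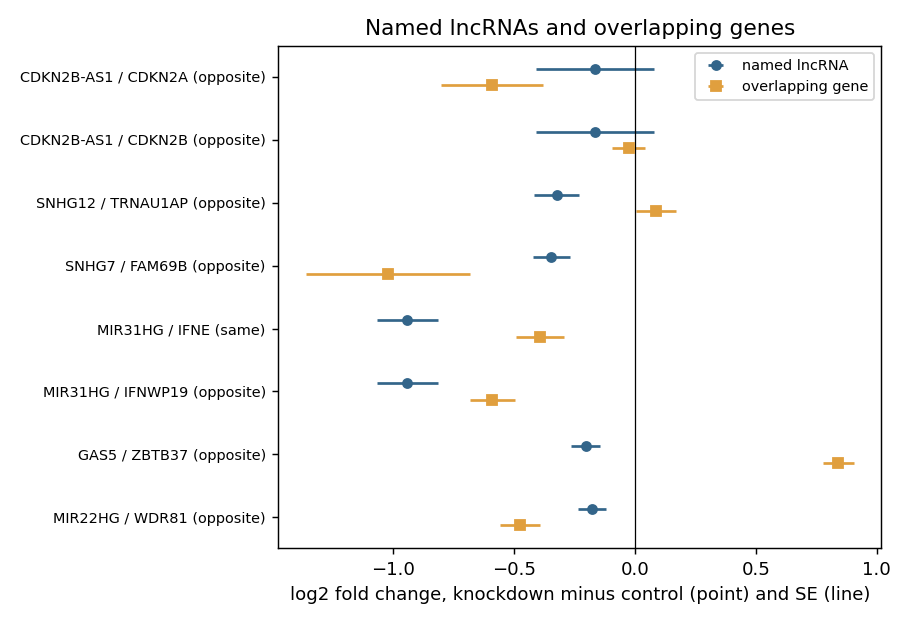
Log2 fold change (knockdown minus control) with its SE of named lncRNAs (blue circles) and genes that overlap them on the stated strand (orange squares). MIR31HG lies left of both overlapping genes, and GAS5 and ZBTB37 lie on opposite sides of 0.

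The antisense lncRNAs were compared with their sense partners within each library, as the log2 ratio of antisense to sense reads. CYP1B1, a cytochrome P450 that acts on estrogens and xenobiotics, rose from 5.39 ± 0.43 to 39.3 ± 1.7 RPM (log2 fold change 2.87 ± 0.08, adjusted p = 8.4e-09). CYP1B1-AS1 on the other strand had 2, 0 and 1 reads in the controls and 6, 7 and 6 in the knockdowns, despite the lower totals there. Their log2 ratio differed by 0.205 between groups (exact permutation p = 0.7), with overlapping libraries, and the sign of this difference turned when the offset or a library was changed. Without control replicate 2 it was -0.317.

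MAMDC2, which encodes a secreted MAM domain protein, rose from 3.23 ± 0.53 to 16.4 ± 0.9 RPM (2.36 ± 0.12, adjusted p = 2e-07). MAMDC2-AS1 did not follow, with 10, 5 and 10 reads in the controls and 6, 9 and 4 in the shallower knockdowns. Scaled to library size this was 0.220 ± 0.066 and 0.265 ± 0.121 RPM (SD, n = 3), with overlapping libraries. The log2 ratio of antisense to sense went from -3.82 ± 0.23 to -5.95 ± 0.73 (SD, n = 3), a difference of -2.13 without overlap between the groups. The exact permutation p was 0.1, the smallest possible, and 0.4 when adjusted over the 4 pairs.

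The remaining pairs showed no separation. CDKN2B-AS1 (also called ANRIL) runs opposite CDKN2B, a cell cycle inhibitor of senescent cells. It had 0.822, 0.766 and 0.795 RPM in the controls and 0.941, 0.640 and 0.570 RPM in the knockdowns. The controls lay inside the knockdown range, and the log2 fold change of -0.16 ± 0.24 did not pass (adjusted p = 0.63). CDKN2B itself had 327 ± 30 and 321 ± 23 RPM (-0.03 ± 0.07), and the ratio of the pair differed by -0.138 (exact permutation p = 0.6). EPB41L4A was nearly silent at 0.0405 RPM in the controls and 0.0418 RPM in the knockdowns, so the ratio for EPB41L4A-AS1, which differed by -0.0531 (exact permutation p = 1), holds little information.

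JPX and FTX, lncRNAs of the X inactivation centre that overlap on opposite strands, did not pass. JPX had -0.05 ± 0.07 (adjusted p = 0.61) and FTX 0.26 ± 0.13 (adjusted p = 0.13). The catalytic RNAs were measured poorly: RMRP had 6 to 47 reads per library and -0.03 ± 0.46, and RPPH1 4 to 20 reads and 0.23 ± 0.49. Of the 10 protein genes of RNase P and RNase MRP, 6 fell and none rose (60.0% called, against 41.0% of all genes), POP5 by -0.54 ± 0.07 (adjusted p = 0.00011) and RPP25 by -1.12 ± 0.37 (adjusted p = 0.033, at about 1 RPM) the most. Among 4 tested telomerase genes, 1 fell, the RNA-trimming enzyme PARN by -0.30 ± 0.06 (adjusted p = 0.0016). Over all the lists of partner proteins 33 of 72 tested genes (45.8%) passed, 11 higher and 22 lower, near the share of all genes, and 20 passed without control replicate 3. Of 11 tested neighbours out of 17 listed, 2 rose (CYP1B1 and MAMDC2) and 3 fell (MYC, CDKN2A and IGF2), or 45.5% against 41.0% of all genes. Without control replicate 2 the neighbours called were 2 higher and 5 lower, and thinning to the smallest total gave 3 higher and 2 lower.

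The summed level of all 47 lncRNAs was 1853 ± 61 RPM in the controls and 2073 ± 65 RPM in the knockdowns, a ratio of 1.12 (exact permutation p = 0.1, the smallest possible). The 5 most abundant held 63.5% of these reads in the controls, so the sum mostly reports NORAD, MEG3, MALAT1, TUG1 and FENDRR. Without MALAT1 and NEAT1 the sums were 1571 ± 33 and 1754 ± 50 RPM. The sum over all genes of the set therefore went up while the sum over the snoRNA hosts went down.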

How the data were processed

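Reads (single-end, 50 bp) were aligned with Bowtie2 to hg19 and counted with featureCounts, per the submitters' processing notes; versions, strand setting and annotation release are not given in the sources used here. The authors deposited a table of log2 values, log2 CPM with an offset of 0.5 reads, from which whole reads were recovered for 100% of values (tolerance 0.01); RPM divides them by the effective library size. limma 3.58.1 (R 4.3.3; lmFit, eBayes with trend) was run on the deposited log2 values of the 19048 genes with a mean of at least 10 normalized reads, with two-sided p-values adjusted by Benjamini-Hochberg and called at 0.05. Fold changes on this scale understate those of low genes. The fit was tried on simulated data in which 200 of 19048 genes changed, all by a log2 fold change of at least 1 in size. There 95% of the changed genes were found, and 3.55% of the calls were false. Smaller changes, such as most of those called here, were not simulated. Exact permutation tests (scipy 1.17.1) were two-sided.

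The lncRNAs and lists were chosen with earlier results of these data known. Values per library were given for the 6 largest rises and falls with a mean of at least 50 reads, and for MALAT1, NEAT1, MEG3, GAS5, CDKN2B-AS1 and MIR31HG; other lists were named by their largest changes, and unchanged partners were named after their values were seen. Knockdown columns carry an ending that the labels do not explain. Lengths and exon overlaps came from GENCODE 29 by gene ID, sequences from RefSeq (GRCh38.p14). The search for mature microRNAs left out PVT1, which rose, and SNHG6, so any microRNAs inside these genes are not counted. Other offsets, filters, scalings, variance models, voom, thinning, thresholds, left-out libraries and the replicate block were tried. The result of 1 gene of the partner lists is not reported here; counts over lists include it.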

Additional observations from a re-analysis of the deposited data

How the results depend on the processing

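Of the 20 lncRNAs called, 11 passed in all 18 other fits, 9 lost the call in at least 1 and none reversed. Leaving out each library in turn gave counts of 13 to 21 (13 without knockdown replicate 3, 14 without control replicate 3), for snoRNA hosts from 6 to 10, for neighbours from 4 to 7 (7 without control replicate 2) and for partner proteins from 20 (without control replicate 3) to 31. At an adjusted p of 0.01 the counts were 10, 4 and 21 for the lncRNAs, hosts and partners, and past a log2 fold change of 1 in size they were 1, 0 and 1, with 2 neighbours; the limma count of 0 hosts stands beside 10 at the usual threshold. With no listed opposite-strand gene, 8 lncRNAs and 4 hosts passed, from fewer genes by construction. No equal-numbered libraries deviated together (correlations -0.149, -0.183 and 0.0655); with the replicate block 17 lncRNAs, 8 hosts, 4 neighbours and 25 partners passed, and MALAT1 passed (adjusted p = 0.034). Signs turned for uncalled genes only, and the cause was not tested: RMRP 0.113 and DLEU2 0.0374 (offset of 5 reads), SNHG10 0.00317 (quantile), MIR210HG 0.13, JPX 0.0138 and DLEU2 0.0828 (thinned). With a library left out, the uncalled SNHG3 ran from -0.0259 to 0.0733, RMRP from -0.411 to 0.415, SNHG17 from -0.165 to 0.010, SNHG10 from -0.0979 to 0.0562, MIR210HG from -0.205 to 0.0608, RPPH1 from -0.0486 to 0.708 and DLEU2 from -0.211 to 0.0664. The CYP1B1-AS1 ratio differed by -0.25 and -1.31 with offsets of 1 and 5 reads and by -0.317 to 0.844 with a library left out, and that of EPB41L4A-AS1 by -0.77 to 0.941.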
